A study of Mus musculus with 12 samples.

Results

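The miR-10, miR-196 and miR-615 genes of the Hox clusters were followed from endoderm at embryonic day (E) 8.5 to pancreatic progenitors at E11.5. Entries of a small RNA count table were taken by name if they belonged to miR-10a, miR-10b, miR-196a, miR-196b or miR-615, as a mature arm or as a precursor. In the table their names carry the mouse prefix, as in mmu-miR-10a-5p, mmu-miR-10b-5p, mmu-miR-196a-5p, mmu-miR-196b-5p and, for a precursor, mmu-mir-10b, and it is left out from here on. This matched 14 of 1053 entries, 8 mature arms and 6 precursors, and 9 of the 14 passed a filter on low counts that left 571 entries for testing. The table held 12 libraries of sorted mouse cells, 3 for each of 4 stages. At E8.5 the cells came from whole embryos and were marked by Foxa2mcm, a tamoxifen-inducible Cre knocked into the endoderm gene Foxa2, with tamoxifen given to the dam earlier in gestation. From E9.5 to E11.5, in daily steps, they came from the trunk and were marked by the Pdx1-Cre transgene, which follows a gene of the early pancreas and duodenum. Both drivers switched on tdTomato from the Rosa26 locus. Males of the lineage crosses carried 1 mir-302 allele replaced by eGFP, and the mir-302 genotype of the sorted embryos is not given in the sources used here. Stage, driver and dissected region change together between E8.5 and E9.5, and their effects cannot be told apart. A number in the library names is shared within each stage and differs between all 4 stages. What it stands for is not given, and it cannot be told apart from stage in any comparison. The labels do not say whether the 3 libraries of a stage came from separate litters, so p-values measure the spread between these libraries.

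Hox genes lie in 4 clusters and are switched on in the order in which they lie, so that neighbouring cells along the head-to-tail axis carry different combinations. The miRNA genes inside the clusters are transcribed with their neighbours. The miR-10 genes lie near the Hox4 genes, which act from the hindbrain backwards, and the miR-196 genes lie next to the Hox9 genes, which act further towards the tail. Both families repress Hox mRNAs, and miR-196 can direct cleavage of the Hoxb8 transcript. miR-10 is also related in sequence to miR-99 and miR-100, which lie outside the Hox clusters.

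In the GENCODE vM21 annotation of GRCm38, Mir10a lay on chromosome 11, 96317165 to 96317274 on the plus strand, between genes and 993 bases from Hoxb4. Mir196a-1 lay in the same cluster at 96265164 to 96265265, between Hoxb9 and Hoxb13 and 6192 bases from Hoxb9, so that the starts of these miRNA genes were 52001 bases apart. Mir10b lay at 74726070 to 74726137 of chromosome 2, plus strand, inside an intron of Hoxd3 and Hoxd4. Mir196a-2 (chromosome 15, 102973350 to 102973434) and Mir615 (chromosome 15, 103014910 to 103015001) lay on the plus strand of the Hoxc cluster, both within an intron of the annotated Hoxc5 gene. Mir196a-2 was 1457 bases from Hoxc10 and 3005 bases from Hoxc9. Mir196b lay on chromosome 6, 52230081 to 52230165 on the minus strand, where it overlapped an exon of Hoxa9.

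The mature sequences below, from RefSeq on GRCm38.p6, show which members share a seed, the bases that choose target mRNAs. They are written 5′ to 3′, and capitals mark bases 2 to 8. The last 3 are the relatives outside the Hox clusters.
miR-10a-5p: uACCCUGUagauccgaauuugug
miR-10b-5p: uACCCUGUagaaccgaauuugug
miR-196a-5p: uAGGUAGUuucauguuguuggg
miR-196b-5p: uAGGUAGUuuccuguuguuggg
miR-615-3p: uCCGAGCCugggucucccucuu
miR-99a-5p: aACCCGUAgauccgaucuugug
miR-99b-5p: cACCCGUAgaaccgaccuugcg
miR-100-5p: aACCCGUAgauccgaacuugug

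Counted from the 5′ end, miR-10a-5p and miR-10b-5p differed only by U12A over 23 bases, outside the shared seed ACCCUGU. miR-196a-5p and miR-196b-5p differed only by A12C over 22 bases and shared the seed AGGUAGU. Among the mature entries of the count table with a RefSeq sequence, no other carried either seed. The relatives miR-99a-5p, miR-99b-5p and miR-100-5p carried ACCCGUA, and among the same entries miR-615-3p alone carried CCGAGCC. Because a single base separates the a and b forms, a sequencing error at that base can move a read between them. miR-196a-5p is encoded identically by Mir196a-1 and Mir196a-2, so its counts cannot be assigned to the Hoxb or the Hoxc cluster.

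Total counts ranged from 386094 to 594224 in E8.5 libraries, from 53996 to 80075 in E9.5 libraries, from 133435 to 267978 in E10.5 libraries and from 417743 to 1103383 in E11.5 libraries. Levels are given as CPM, counts scaled to a common library total, with TMM-scaled library sizes. An entry without counts could have reached the level of 3 counts, which was highest in the E9.5 libraries (32.0 to 75.9 CPM) and reached 25.8 CPM or less in the others. The counts were reads after PCR, so such floors and the intervals given later cover counting error only. In each library the number of entries per count was high at the lowest counts, fell, and peaked again at a second count level of 29.7 to 133 reads. Where a called or described result rests on counts well under that level, the reads are given, and the part of that level in those results was not tested. The label of the Pdx1-Cre cells was set beside miRNAs of the pancreas, which do not check the endoderm label at E8.5. The summed level of miR-375-3p, miR-7a-5p and miR-7b-5p lay between 23024 and 27579 CPM in E8.5 libraries, between 34770 and 63300 in E9.5 libraries, between 101912 and 144780 in E10.5 libraries and between 76617 and 118275 in E11.5 libraries. Both miR-7 arms were higher in every E9.5 library than at E8.5. miR-375-3p overlapped, with 17322 CPM in E9.5 replicate 3 against 19537 and 17869 CPM in E8.5 replicates 1 and 2.

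Together the 14 entries took 4.66% ± 1.50 of the counts of a library at E8.5 (SD, n = 3 at each stage). They took 0.785% ± 0.437 in E9.5 libraries, 0.402% ± 0.165 in E10.5 libraries and 0.815% ± 0.800 in E11.5 libraries. Of the 90562 reads assigned to them, miR-10a-5p took 48.7%, miR-10b-5p 32.8%, miR-615-3p 4.35% and miR-196a-5p 3.33%. The miR-10 5p arms and miR-615-3p were highest in the E8.5 endoderm. All 9 Pdx1-Cre libraries lay below all 3 E8.5 libraries for them, as they did for 11.6% of all tested entries. The miR-196 arms did not follow that order and varied most between libraries of the same stage.

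**Figure D1:**
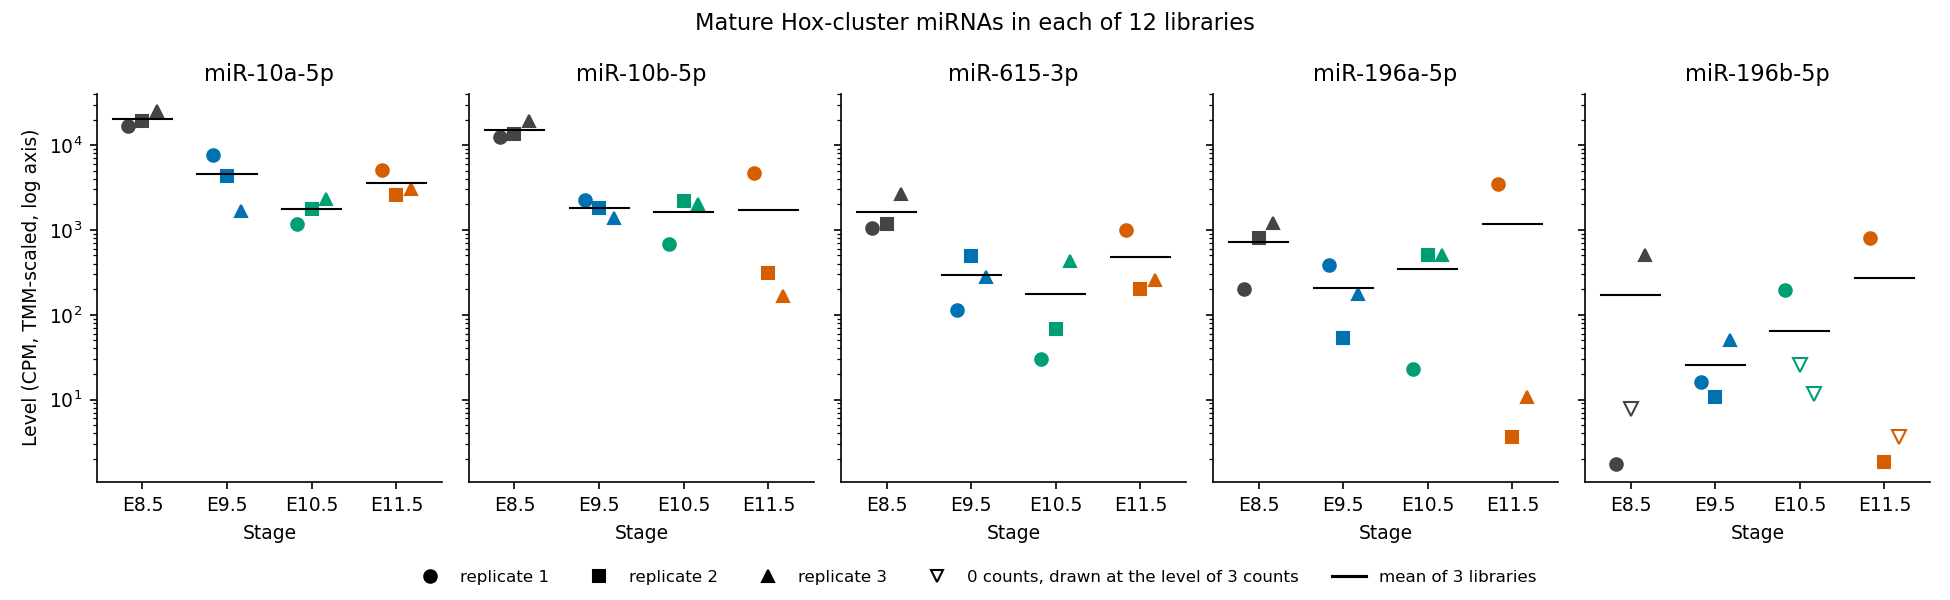
Level of the 5 mature Hox-cluster miRNAs with the most counts in each library (CPM, log axis) by stage, with a symbol for each replicate, a line at the mean of 3 libraries and open triangles where a library held 0 counts, drawn at the level of 3 counts. All 9 Pdx1-Cre libraries sit below the E8.5 libraries for miR-10a-5p, miR-10b-5p and miR-615-3p, as for 11.6% of all tested entries. Replicate 1 of E11.5 sits far above the other E11.5 libraries for both miR-196 arms.

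miR-10a-5p, the guide arm of Mir10a, was at 16666, 19230 and 25174 CPM in replicates 1 to 3 of E8.5. It was at 7632, 4304 and 1694 CPM in those of E9.5, 1191, 1761 and 2307 CPM in those of E10.5, and 5067, 2587 and 3034 CPM in those of E11.5. No Pdx1-Cre library reached the lowest E8.5 library, which held for 11.6% of all entries. The E11.5 libraries all lay above the E10.5 libraries, as they did for 9.81% of all entries. In the edgeR quasi-likelihood test with Benjamini-Hochberg adjustment over all 571 entries, miR-10a-5p was lower than at E8.5 at each later stage. Its log2 fold change from E8.5 was -2.16 in E9.5 libraries (SE 0.50, adjusted p = 0.00745), -3.54 in E10.5 libraries (SE 0.53, adjusted p = 6.18e-05) and -2.51 in E11.5 libraries (SE 0.50, adjusted p = 0.00125). The E9.5 call was lost without E8.5 replicate 3 (adjusted p = 0.0562), with only the 6 libraries of these stages (adjusted p = 0.0625) and with limma voom (adjusted p = 0.0549). Its log2 fold change from E9.5 to E10.5 was -1.38 (SE 0.49, edgeR adjusted p = 0.116), and it was -2.03 without E9.5 replicate 3 (adjusted p = 0.00406) but -0.78 without E9.5 replicate 1 (adjusted p = 0.369). From E10.5 to E11.5 the log2 fold change was 1.02 (SE 0.48, edgeR adjusted p = 0.449), so the return towards higher values at E11.5 was not called.

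miR-10b-5p, the guide arm of Mir10b, carries the same seed as miR-10a-5p. It was at 12495, 13580 and 19333 CPM in replicates 1 to 3 of E8.5, 2273, 1826 and 1391 CPM in those of E9.5, 674, 2173 and 1999 CPM in those of E10.5, and 4662, 310 and 168 CPM in those of E11.5. The Pdx1-Cre libraries again lay below every E8.5 library, as for 11.6% of all entries. Within E11.5 the highest library was 27.7 times the lowest, against 3.23 times at E10.5. By edgeR, miR-10b-5p was also lower than at E8.5 at each later stage. Its log2 fold change from E8.5 was -3.05 in E9.5 libraries (SE 0.84, adjusted p = 0.0300), -3.23 in E10.5 libraries (SE 0.85, adjusted p = 0.0170) and -3.14 in E11.5 libraries (SE 0.84, adjusted p = 0.0163). The E9.5 call was lost without E8.5 replicate 2 or 3, without any of the 3 E9.5 libraries, and without E10.5 replicate 2 or 3 (edgeR adjusted p = 0.0565 to 0.126). With all libraries it was lost under RLE scaling (edgeR adjusted p = 0.104), with DESeq2 (adjusted p = 0.0530) and with limma voom (adjusted p = 0.0950). The E10.5 call was lost without any of the 3 E10.5 libraries (edgeR adjusted p = 0.0593 to 0.0810). The E11.5 call was lost without E11.5 replicate 2 (log2 fold change -2.65, adjusted p = 0.0544), and without E11.5 replicate 1 the log2 fold change was -5.98 (adjusted p = 1.15e-05).

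miR-615-3p, the mature arm of Mir615 in the table, was at 1046, 1170 and 2640 CPM in replicates 1 to 3 of E8.5. It was at 114, 491 and 278 CPM in those of E9.5, 30.5, 68.7 and 429 CPM in those of E10.5, and 987, 201 and 259 CPM in those of E11.5. The highest Pdx1-Cre library, E11.5 replicate 1, came closest to the lowest E8.5 library, and the others were further below. In single stages the log2 fold changes against E8.5, in order of stage, were -2.45, -3.19 and -1.75, and none passed the edgeR test (adjusted p = 0.231, 0.0787 and 0.424). Of 11 alternative ways of processing that kept the libraries of both stages, 0 called the E9.5 value, 4 the E10.5 value and 2 the E11.5 value. Without E10.5 replicate 3 the E10.5 value was -4.96 and passed (edgeR adjusted p = 0.0373). That value rested on 8 reads in each of E10.5 replicates 1 and 2, at 0.074 and 0.13 of the second count level of those libraries. E9.5 replicates 1 and 3 held 7 and 11 reads of miR-615-3p, at 0.082 and 0.17 of theirs.

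Precursor entries hold reads of the hairpin that were not counted as a mature arm. mir-10b was at 1550, 2353 and 3254 CPM in replicates 1 to 3 of E8.5, 877, 545 and 152 CPM in those of E9.5, 38.1, 51.5 and 23.4 CPM in those of E10.5, and 508, 11.0 and 7.22 CPM in those of E11.5. No E10.5 library reached an E9.5 library, which held for 7.01% of all entries, and E11.5 replicate 1 again stood with E9.5. By edgeR, mir-10b fell from E8.5 to E10.5, where its log2 fold change was -6.00 ± 1.46 (SE) and the adjusted p was 0.00995. That call was lost without any of the 3 E10.5 libraries (edgeR adjusted p = 0.0513 to 0.0580). Against E8.5 its log2 fold change was -2.18 at E9.5 (adjusted p = 0.279) and -3.77 at E11.5 (adjusted p = 0.0608), and from E9.5 to E10.5 it was -3.82 (adjusted p = 0.116) in the same fit, so none of these passed. With no filter on low counts edgeR called the E11.5 value (adjusted p = 0.0161) and the step from E9.5 to E10.5 (adjusted p = 0.0272), and DESeq2 and limma voom also called the E11.5 value (adjusted p = 0.00632 and 0.000202). Without E11.5 replicate 1 the E11.5 value was -7.98 (adjusted p = 0.000899), and without E9.5 replicate 3 it was -3.87 (adjusted p = 0.0380). The step from E9.5 to E10.5 passed without E11.5 replicate 1 (log2 fold change -3.82, adjusted p = 0.0392). mir-10b rested on 22 reads in the 3 E10.5 libraries together, each of them under 0.10 of the second count level of its library. In E11.5 replicates 2 and 3 it held 12 and 6 reads, at 0.091 and 0.068 of their level. In E9.5 replicate 3 it held 6 reads, at 0.094 of its level.

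mir-10a, the other miR-10 precursor, was at 785, 1498 and 2325 CPM in replicates 1 to 3 of E8.5, 81.2, 651 and 228 CPM in those of E9.5, 232, 103 and 27.3 CPM in those of E10.5, and 618, 418 and 114 CPM in those of E11.5. All 9 later libraries were below the E8.5 libraries, as for 11.6% of all entries. The log2 fold changes against E8.5, -2.25 for E9.5 and -3.66 for E10.5 among them, did not pass the edgeR test with all 12 libraries and the filter used throughout (adjusted p = 0.255, 0.0539 and, for E11.5, 0.308). The E10.5 value passed without any 1 of the E9.5 libraries (edgeR adjusted p = 0.0277 to 0.0362), with a filter of 10 counts in 6 libraries (0.0430), with the 6 libraries of E8.5 and E10.5 alone (0.0129), with DESeq2 (0.00210) and with limma voom (0.0245). The E11.5 value passed with the 6 libraries of its stages alone (edgeR adjusted p = 0.0490) and with limma voom (adjusted p = 0.0225). mir-10a held 5 and 9 reads in E9.5 replicates 1 and 3, at 0.059 and 0.14 of the second count level of those libraries. In E10.5 replicates 2 and 3 it held 12 and 7 reads, at 0.19 and 0.083 of theirs. The 3p arms were rare. miR-10a-3p held 140, 42 and 182 reads in E8.5 libraries, 0, 1 and 1 in E9.5 libraries, none in E10.5 libraries and 22, 2 and 0 in E11.5 libraries. miR-10b-3p held 181, 14 and 56 reads in E8.5 libraries, 1, 2 and 0 in E9.5 libraries, none in E10.5 libraries and 0, 0 and 1 in E11.5 libraries. Against a floor of 3 reads per library, the mean level at E8.5 was at least 12.6-fold higher than at E10.5 for miR-10a-3p and at least 8.80-fold higher for miR-10b-3p. The second bound rested on E8.5 replicate 1 and was 3.59-fold without it.

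Against E8.5, edgeR called 2 of the 9 tested entries at E9.5 (miR-10a-5p and miR-10b-5p, both lower), where 1.58% of all tested entries were called lower. At E10.5 it called 3 (miR-10a-5p, miR-10b-5p and mir-10b, all lower), against 4.20% of all entries. At E11.5 it called the same 2 arms as at E9.5, against 6.30% of all entries called lower. With the 3 Pdx1-Cre stages averaged and set against E8.5, 7 of the 9 were called, all lower, where 11.0% of all entries were called lower. These were all 6 miR-10 entries and miR-615-3p. Of the 7, miR-10a-3p and miR-10b-3p passed the filter on low counts only through the E8.5 libraries, where they are high, so their calls could only be lower and are given as a description. The other 7 tested entries reached the level of the filter in at least 3 Pdx1-Cre libraries. For the 7 called entries every Pdx1-Cre library was listed below every E8.5 library, as it was for 11.6% of all entries. With counts under 3 set to the floor this held for 6 of them, since miR-10b-3p was at 36.2 CPM in E8.5 replicate 2 and the floor of E9.5 replicate 3 was 75.9 CPM. The 5 entries that did not pass the filter held 10 to 153 reads each. The median log2 fold change from E8.5 to E9.5 over all 571 entries was itself -0.84, and scaling by the RLE method moved that median by 0.64. In the averaged contrast the log2 fold change was -2.74 for miR-10a-5p (SE 0.35, edgeR adjusted p = 5.29e-06), -3.14 for miR-10b-5p (SE 0.58, adjusted p = 0.000482), -3.98 for mir-10b (SE 0.87, adjusted p = 0.00200), -2.64 for mir-10a (adjusted p = 0.0214) and -2.46 for miR-615-3p (SE 0.79, adjusted p = 0.0321). In mean CPM, E8.5 was 6.19 times the 9 Pdx1-Cre libraries for miR-10a-5p, 8.80 times for miR-10b-5p, 9.70 times for mir-10b and 5.10 times for miR-615-3p.

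The calls of miR-10a-5p, miR-10b-5p and mir-10b in the averaged contrast held without each library in turn. Without E11.5 replicate 1 the log2 fold change of miR-10b-5p was -4.09 and that of mir-10b was -5.39, each a larger fall than with all libraries. mir-10a no longer passed when replicate 2 or 3 of E8.5 was left out (edgeR adjusted p = 0.0718 and 0.174). The same held for miR-10a-3p with replicate 1 or 3 of E8.5 left out (edgeR adjusted p = 0.0592 and 0.0597) and for miR-10b-3p with replicate 1 left out (adjusted p = 0.0623). miR-615-3p no longer passed when any 1 of the 3 E8.5 libraries, replicate 2 of E10.5, or replicate 2 or 3 of E11.5 was left out (edgeR adjusted p = 0.0566 to 0.256), nor under RLE scaling (adjusted p = 0.0591). Leaving out replicate 1 or replicate 3 of E8.5 lowered the count of 7 to 4 in each case.

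**Figure D2:**
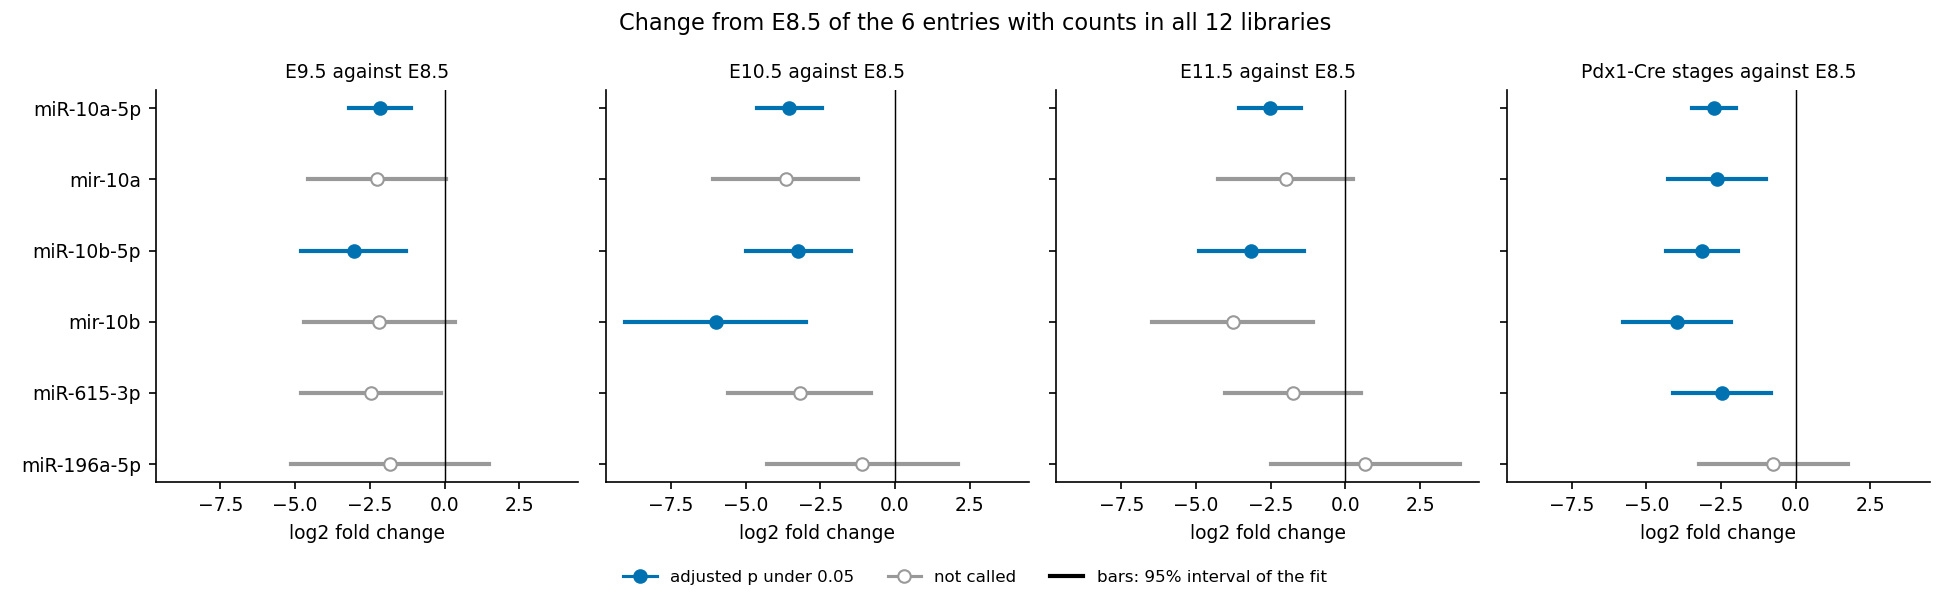
Log2 fold change from E8.5 at each Pdx1-Cre stage and for the average of the 3 stages, for the 6 entries with counts in all 12 libraries, with bars for the 95% interval of the fit and filled points where the adjusted p is under 0.05. miR-10a-5p and miR-10b-5p are called in every panel, and miR-196a-5p in none, with an interval that includes 0 throughout.

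Between Pdx1-Cre stages edgeR called none of the 9 entries: 0 from E9.5 to E10.5, where 4.38% of all entries were called, 0 from E10.5 to E11.5, where 0.350% were called, and 0 from E9.5 to E11.5, where 4.55% were called. At an unadjusted p under 0.05 there were 2, 1 and 0, against 18.2%, 10.7% and 18.4% of all entries. DESeq2 called 2 of them from E9.5 to E10.5 (miR-10a-5p, adjusted p = 0.0104, and mir-10b, adjusted p = 0.00628), where it called 14.0% of all entries to which it gave an adjusted p. It called 0 from E10.5 to E11.5 and 0 from E9.5 to E11.5, against 1.51% and 10.8% of all entries. The log2 fold change of miR-10b-5p from E9.5 to E11.5 was -0.10 (SE 0.78, edgeR adjusted p = 0.948) and that of mir-10b was -1.59 (SE 1.20, adjusted p = 0.460). Without E11.5 replicate 1 they were -2.93 (adjusted p = 0.00760) and -5.80 (adjusted p = 0.0118), so this library decided both.

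The share of miR-10b-5p among reads of both 5p arms is a value within a library that does not depend on scaling. It was 42.8%, 41.4% and 43.4% in replicates 1 to 3 of E8.5, with exact (Clopper-Pearson) 95% intervals no wider than 40.5% to 44.0%. It was 23.0%, 29.8% and 45.1% in those of E9.5, where the last value rested on 122 reads (95% interval 36.1% to 54.3%), and 36.1%, 55.2% and 46.4% in those of E10.5. At E11.5 it was 47.9% in replicate 1 (46.4% to 49.4%), 10.7% in replicate 2 (9.65% to 11.8%) and 5.26% in replicate 3 (4.44% to 6.17%). The E8.5 libraries lay close together, whereas the E11.5 libraries fell apart into 1 library near the E8.5 share and 2 far below every other library. The mean was 42.6% ± 1.05 at E8.5 (SD, n = 3) and 33.3% ± 17.4 over the Pdx1-Cre libraries (n = 9). The difference of -9.28 percentage points did not pass a two-sided exact permutation test (p = 0.436, with 0.00909 the smallest p the design allows). Among reads of both precursors, mir-10b took 66.4%, 61.1% and 58.3% in replicates 1 to 3 of E8.5, 91.5%, 45.5% and 40.0% in those of E9.5, 14.1%, 33.3% and 46.2% in those of E10.5, and 45.1%, 2.56% and 5.94% in those of E11.5. The same library was high at E11.5, the highest share of all was in E9.5 replicate 1, and the E9.5 and E10.5 shares rested on 13 to 112 reads.

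miR-196a-5p, the arm made from Mir196a-1 and Mir196a-2, was at 199, 798 and 1193 CPM in replicates 1 to 3 of E8.5. It was at 390, 53.4 and 177 CPM in those of E9.5, 22.8, 507 and 503 CPM in those of E10.5, and 3479, 3.66 and 10.8 CPM in those of E11.5. The stages overlapped in every comparison, and the highest and the lowest of all 12 libraries were both E11.5 libraries, 951 times apart. In reads, E11.5 replicate 1 held 1526, which was 51.5 times the second count level of that library. Replicates 2 and 3, the deepest libraries of the series, held 4 and 9, at 0.030 and 0.10 of theirs. The log2 fold changes against E8.5, in order of stage, were -1.83, -1.09 and 0.67, and none passed the edgeR test (adjusted p = 0.484, 0.720 and 0.890). Without E11.5 replicate 1 the E11.5 value turned to -6.60 (adjusted p = 0.0387). The averaged contrast gave -0.75 (SE 1.20, edgeR adjusted p = 0.758) with all libraries and -3.17 (adjusted p = 0.0321) without it.

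miR-196b-5p, made from Mir196b beside Hoxa9, was at 1.73, 0 and 507 CPM in replicates 1 to 3 of E8.5, 16.2, 10.7 and 50.6 CPM in those of E9.5, 194, 0 and 0 CPM in those of E10.5, and 809, 1.83 and 0 CPM in those of E11.5. In each of E8.5, E10.5 and E11.5 a single library held almost all of the reads: 351 of 352, 51 of 51 and 355 of 357. The 3 E9.5 libraries held 1, 1 and 2 reads, where 3 reads are the floor. The 51 reads of E10.5 replicate 1 were 0.47 of the second count level of that library, whereas 351 and 355 reads were 6.43 and 12.0 times the level of theirs. The edgeR test called miR-196b-5p in none of the comparisons (adjusted p = 0.472 to 0.917), and no fold is given because 4 libraries held no reads.

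The miR-196 arms had the same highest library in 2 of the 4 stages, E8.5 replicate 3 and E11.5 replicate 1. E10.5 replicate 1 was the highest for miR-196b-5p and the lowest for miR-196a-5p (6 reads), and at E9.5 miR-196a-5p was highest in replicate 1 and miR-196b-5p, with 2 reads, in replicate 3. When the 571 tested entries were ranked by how far each stood in E11.5 replicate 1 above the higher of the other E11.5 libraries, miR-196a-5p ranked 1 (7.79 on the log2 CPM scale) and miR-196b-5p ranked 2. mir-10b ranked 4 (5.01), miR-10b-5p ranked 13 (3.89), miR-615-3p ranked 51 (1.91) and miR-10a-5p ranked 99 (0.74). Ranked in the same way in E8.5 replicate 3, miR-196b-5p was at 1. The other libraries of both stages held 0 to 2 reads of miR-196b-5p, so its place depends on the prior count of 2 and no difference is given. These ranks describe single libraries, and no test was made of them.

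The low-count entries of the miR-196 genes had their reads in the same libraries. The precursor mir-196a-1 held 100 reads in E11.5 replicate 1 and 47 in E8.5 replicate 3, against 0 to 3 in each of the other 10 libraries. mir-196a-2 held 54 and 35 in those libraries and 0 or 1 elsewhere, and the 10 reads of miR-196a-1-3p were all in E11.5 replicate 1. Reads thus fell in the precursor entries of both Mir196a genes in both libraries. mir-196b did not follow its arm, with 21, 14 and 5 reads at E8.5 and 3 reads over all Pdx1-Cre libraries. The precursor mir-615 held 12 reads in E8.5 replicate 1, 25 in E9.5 replicate 1 and 1 each in E10.5 and E11.5 replicate 1.

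The share of miR-196a-5p among reads of miR-196a-5p and miR-10a-5p sets these arms side by side within a library. It does not compare genes of a single cluster, because miR-196a-5p can come from Mir196a-1 beside Hoxb9 or from Mir196a-2 in the Hoxc cluster. It was 1.18%, 3.99% and 4.52% in replicates 1 to 3 of E8.5, 4.86%, 1.23% and 9.46% in those of E9.5, and 1.88%, 22.3% and 17.9% in those of E10.5. At E11.5 it was 40.7% in replicate 1 (exact 95% interval 39.1% to 42.3%), 0.141% in replicate 2 (0.0385% to 0.361%) and 0.355% in replicate 3 (0.163% to 0.674%). The highest share at E8.5 was below the share in E10.5 replicates 2 and 3 and E11.5 replicate 1, whose intervals lay above it. The shares in E9.5 replicates 1 and 3 rested on 24 and 7 reads of miR-196a-5p, and their intervals (3.14% to 7.14% and 3.89% to 18.5%) included 4.52%. miR-615-3p, from the Hoxc cluster, took 5.91%, 5.74% and 9.49% of its sum with miR-10a-5p at E8.5 and 16.3%, 7.22% and 7.85% at E11.5. That share did not set E11.5 replicate 1 apart to the same extent.

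**Figure D3:**
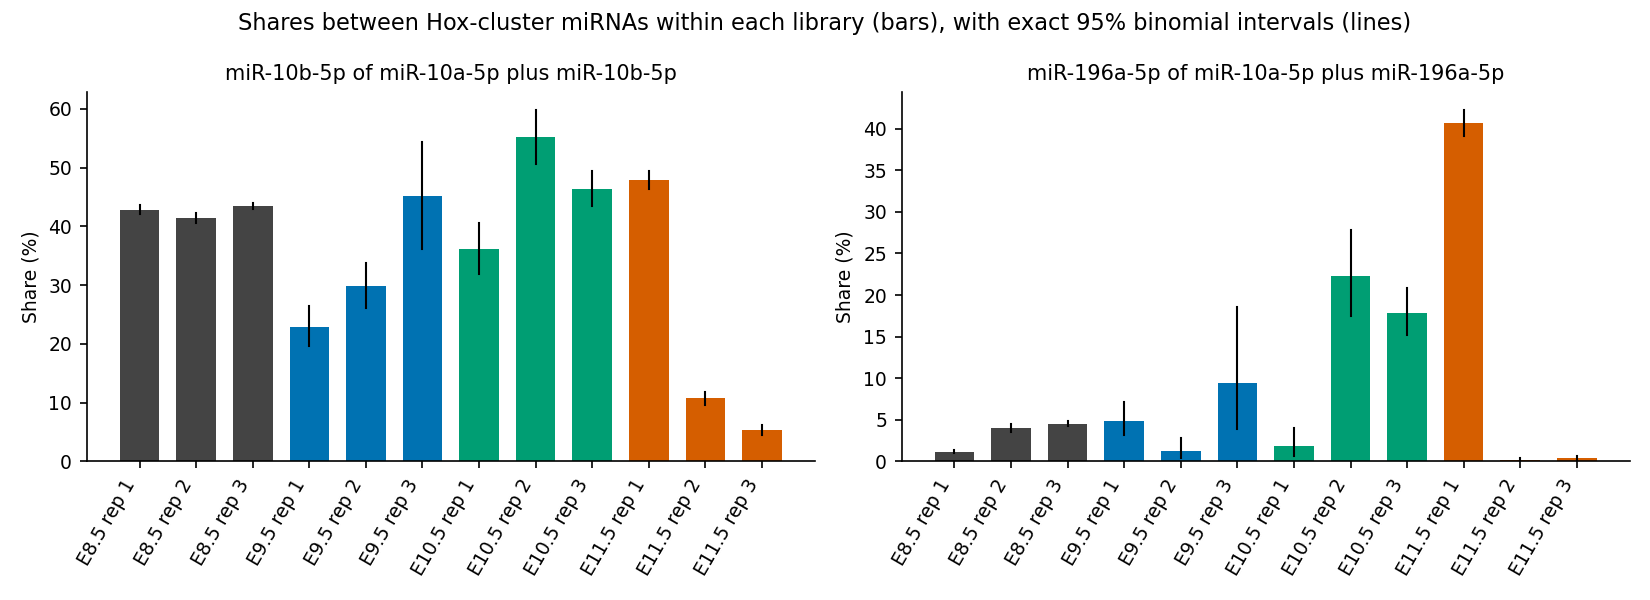
Share of miR-10b-5p among reads of both miR-10 5p arms (left) and of miR-196a-5p among reads of miR-196a-5p and miR-10a-5p (right) in each of the 12 libraries, in percent, with exact 95% binomial intervals as lines. Replicate 1 of E11.5 stands at 47.9% and 40.7%, while replicates 2 and 3 of E11.5 hold the lowest shares of all libraries in both panels.

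The relatives miR-99a-5p, miR-99b-5p and miR-100-5p carry a different seed from miR-10. Of these, miR-99a-5p and miR-99b-5p rose from E8.5 to E11.5 and miR-100-5p was not called in any comparison. Their summed level lay between 2676 and 4225 CPM in E8.5 libraries, between 3225 and 6094 in E9.5 libraries, between 7550 and 12435 in E10.5 libraries and between 14534 and 21884 in E11.5 libraries. miR-99b-5p, the most abundant of them, had a log2 fold change of 2.29 at E11.5 (edgeR adjusted p = 0.000422). miR-99a-5p rose with 5.60 (adjusted p = 0.00165), and miR-100-5p had a log2 fold change of 4.63 (edgeR adjusted p = 0.0501). Against E8.5, 1 of the 3 relatives was called higher in E9.5 libraries, 2 in E10.5 libraries and 2 in E11.5 libraries, and none lower, where 4.03%, 4.38% and 5.25% of all entries were called higher. In E11.5 replicate 1 their sum was the lowest of that stage, and the sum of the 14 Hox-cluster entries was the highest.

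Markers of other cell types were read in the same libraries, since a sorted fraction can hold more than the labelled cells and bulk values cannot tell fewer cells of a type from less RNA per cell. The mesenchymal list (miR-199a-5p, miR-199a-3p, miR-214-3p, miR-143-3p, miR-145a-5p and miR-140-3p) summed to between 6791 and 13235 CPM in E8.5 libraries, between 1410 and 4982 in E9.5 libraries, between 3376 and 11400 in E10.5 libraries and between 3778 and 8026 in E11.5 libraries. It ranged widely at each stage, with 3 to 6 of its 6 members detected per library. In E11.5 replicate 1 it was at 8026 CPM with all 6 members detected, against 3778 and 6303 CPM in replicates 2 and 3. The same library was the lowest of its stage for the epithelial list (23397 CPM, against 38948 and 38413) and for the pancreatic miRNAs (76617 CPM, against 118275 and 101167). The muscle list (miR-1a-3p, miR-133a-3p and miR-206-3p) summed to between 6286 and 26546 CPM in E8.5 libraries, between 5278 and 26855 in E9.5 libraries, between 266 and 3518 in E10.5 libraries and between 280 and 1711 in E11.5 libraries, and so was lower at E10.5 and E11.5, as the miR-10 arms were. At E8.5 all 3 of its members were detected in each library, and later 1 or 2 of them. miR-1a-3p made up most of the sum in every library. In replicates 1 to 3 of E8.5, miR-133a-3p held 75, 1 and 1 reads and miR-206-3p held 10, 2 and 2. miR-206-3p went the other way in E11.5 replicates 1 and 3, with 106 and 208 reads, and held 0 in replicate 2.

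The neural list, of which miR-9-5p, miR-9-3p, miR-124-3p and miR-219a-2-3p were in the table, summed to between 287 and 1029 CPM in E8.5 libraries, between 16.2 and 374 in E9.5 libraries, between 0 and 223 in E10.5 libraries and between 1.20 and 248 in E11.5 libraries. E8.5 replicate 3, the highest E8.5 library for all 5 mature arms drawn by library, was also the highest for this list. In E11.5 replicate 1 it was at 29.6 CPM with 1 of 4 members detected, between replicate 2 (248 CPM) and replicate 3 (1.20 CPM). Of the blood and endothelial list, miR-451a, miR-223-3p, miR-126a-3p and miR-126a-5p were in the table and summed to between 1824 and 2281 CPM in E8.5 libraries, between 406 and 3009 in E9.5 libraries, between 244 and 429 in E10.5 libraries and between 34.2 and 425 in E11.5 libraries, with 1 to 3 of 4 detected per library. Some single markers of these lists were called lower in the averaged contrast, as the miR-10 arms were, and others were not. miR-126a-3p, of endothelial cells, was at 1749 to 2177 CPM in E8.5 libraries and at 32.5 to 429 CPM in the Pdx1-Cre libraries, and fell in the averaged contrast (log2 fold change -2.95, edgeR adjusted p = 0.00733). miR-1a-3p, of muscle, fell too (-2.72, adjusted p = 0.00141), though its libraries overlapped. From E8.5 to E9.5 the log2 fold change of miR-1a-3p was -0.38 (edgeR adjusted p = 0.767), and E9.5 replicate 3 was at 25464 CPM. The neural miR-219a-2-3p held 66, 204 and 361 reads in E8.5 libraries and 0 to 3 in each later library, and was called lower after passing the filter only through E8.5. Of the 6 tested markers of the neural, muscle and blood lists, these 3 were called lower in the averaged contrast, where 11.0% of all entries were called lower. The call of miR-219a-2-3p could only be lower and is given as a description. Not called were miR-126a-5p (log2 fold change -3.11, edgeR adjusted p = 0.226), miR-9-5p (-2.05, adjusted p = 0.432) and miR-124-3p (-2.64, adjusted p = 0.289). miR-223-3p, which was not tested, was at 1673 and 2655 CPM in E9.5 replicates 1 and 3 and at 1.45 CPM or less in E8.5 libraries. Of the mesenchymal markers, miR-143-3p was called lower in the averaged contrast (log2 fold change -1.37, edgeR adjusted p = 0.0125). miR-199a-5p (8.38, adjusted p = 0.0165) and miR-214-3p (5.31, adjusted p = 0.0468) were called higher, from 0 to 3 reads in each E8.5 library. The other mesenchymal markers were not called. The share of all entries called higher in this contrast is not given here. The epithelial list (miR-200a-3p, miR-200b-3p, miR-200c-3p, miR-141-3p and miR-429-3p) lay between 9026 and 11028 CPM in E8.5 libraries and between 23397 and 38948 CPM in E11.5 libraries, with all 5 members detected in every library. The part of other cell types in the levels of the Hox-cluster miRNAs was not tested.

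**Figure D4:**
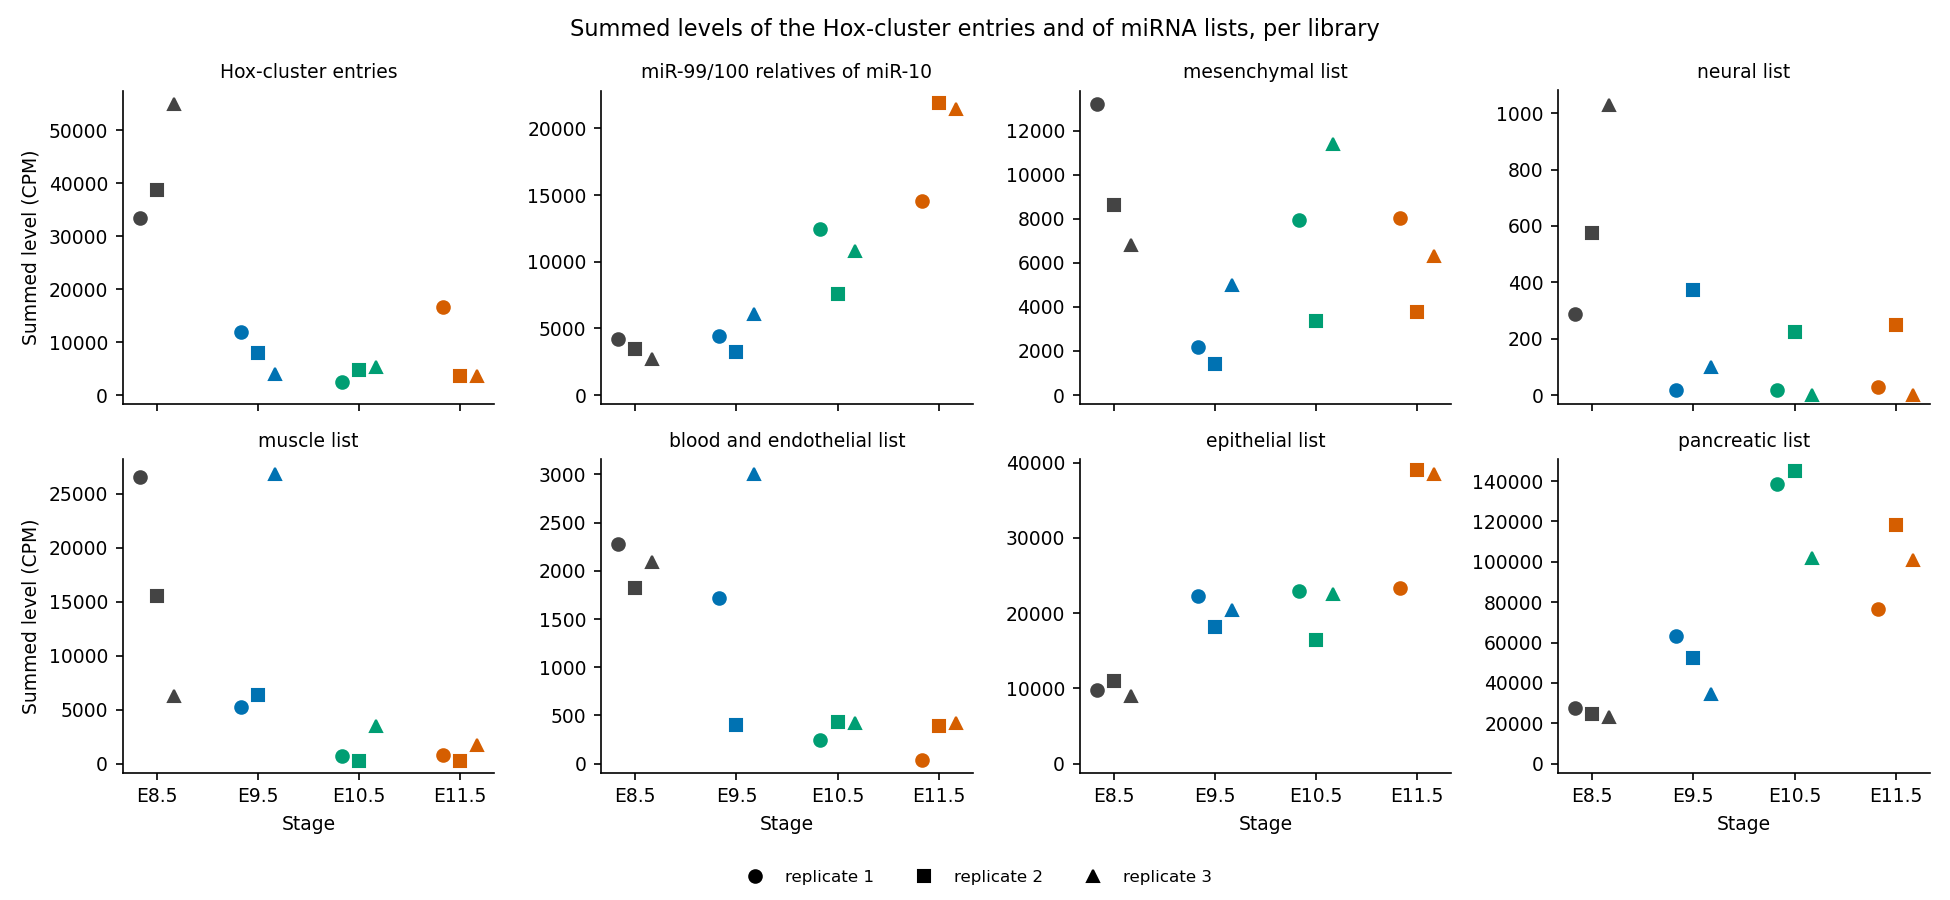
Summed level of the 14 Hox-cluster entries and of 7 lists of miRNAs in each library, in CPM on a linear axis that differs between panels, with a symbol for each replicate. The Hox-cluster sum is highest at E8.5 and stands high in replicate 1 of E11.5, the miR-99 and miR-100 relatives increase with stage, and the muscle list is low at E10.5 and E11.5.

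Of 376 other mature entries, those whose scaled log2 CPM profile over the 12 libraries lay nearest to miR-10a-5p were miR-341-3p, miR-295-5p and miR-20b-5p, at Euclidean distances of 1.54, 1.70 and 1.70 where the median entry was at 4.35. Nearest to miR-10b-5p were miR-34c-5p (1.84), miR-341-3p (1.91) and miR-291a-5p (1.96). Nearest to miR-196a-5p was miR-10b-5p (2.09), followed by miR-25-5p (2.21) and miR-34c-5p (2.80), and nearest to miR-615-3p were miR-10a-3p (1.88), miR-672-5p (1.92) and miR-149-5p (1.93). The 12 points of a profile are libraries that share stage and depth, so these distances are a description.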

How the data were processed

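Small RNA from sorted cells was sequenced after NEXTflex v3 library preparation on an Illumina NextSeq instrument. The authors deposited raw read counts per miRNA entry, made with COMPSRA on mm10 with STAR after trimming of the adapter and 4 random bases. Per the file headers, reads of 17 to 35 bases were kept (36 in 2 libraries). The random bases were not used to count molecules. Counts were tested with edgeR 4.0.16 in R 4.3.3 (glmQLFit and glmQLFTest, TMM factors 0.732 to 1.17, filterByExpr with a minimum count of 10 and a minimum total of 15), with all 12 libraries in 1 fit, stage as the factor and Benjamini-Hochberg adjustment over the 571 entries. An entry was called at an adjusted p under 0.05. The script was tested on simulated data. SE is the log2 fold change divided by the square root of F, and fits used a prior count of 0.125. Shares were compared by an exact permutation test in scipy 1.17.1. Sequences came from RefSeq (GRCm38.p6) and positions from GENCODE vM21.

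Every entry matched by name is reported. Nearest profiles are the 3 mature entries with the smallest Euclidean distance of scaled log2 CPM (prior count 2). Members, marker lists and tests were chosen with earlier results of these data known. miR-137-3p, miR-144-3p and miR-142a-3p of the lists had no entry in the table. Replicates differed beyond sampling noise (chi-square per degree of freedom 41.5 to 137 over 12 pairs). Alternatives were RLE scaling, library size alone, other filters, mature entries alone, leaving out mir-6236 and mir-6240, DESeq2 1.42.0, limma 3.58.1 (voom), a replicate block, fits of 2 stages, leaving out each library and, chosen after seeing the data, counts divided by the second count level of each library.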

Additional observations from a re-analysis of the deposited data

How the results depend on the processing

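In the average of the Pdx1-Cre stages against E8.5, 7 entries were called, and 5 to 7 were called under each alternative that kept every library. Fewer could be called under some alternatives, since mature entries alone left 7 of the 9 entries to test and the filter of 10 counts in 6 libraries left 6. The 7 called entries include miR-10a-3p and miR-10b-3p, which passed the filter only through E8.5 and could only be called lower. Apart from these, miR-10a-5p, miR-10b-5p, mir-10a, mir-10b and miR-615-3p were called. The share of miR-10b-5p differed by -10.8 percentage points with 3p arms and precursors counted (exact permutation p = 0.336) and by -12.0 to -5.78 without each library in turn. In single stages against E8.5, the count of called entries at E9.5 (2) was 1 with RLE scaling, with DESeq2 and with the 6 libraries of these stages alone, 0 with limma voom, and 3 after division of the counts by the second level, which was chosen after seeing the data. At E10.5 (3) it was 6 with the 6 libraries alone, 7 with DESeq2, 7 with limma voom and 5 after that division. At E11.5 (2) it was 5, 4, 7 and 5 under the same alternatives. From E9.5 to E10.5 (0) it was 1 with RLE scaling, with no filter and without mir-6236 and mir-6240, and 2 with DESeq2. Without each library in turn these counts were 0 to 2, 1 to 4, 1 to 4 and 0 to 1, that from E9.5 to E11.5 (0) was 0 to 2, and that of the averaged stages was 4 to 8. The share of all entries called against E8.5 under these settings was not counted, so the counts against E8.5 are a description. Methods can differ in how many entries they call: from E9.5 to E10.5 DESeq2 called 14.0% of all entries and edgeR 4.38%. In the averaged stages miR-615-3p also lost its call without mir-6236 and mir-6240 (edgeR adjusted p = 0.0538), and division by the second level ended those of miR-10a-3p (adjusted p = 0.0599) and miR-10b-3p (adjusted p = 0.0838). The log2 fold change of miR-196a-5p at E11.5 against E8.5 (0.67) was -4.11 with limma voom and -6.60 to 1.26 without each library. That of miR-10b-5p from E9.5 to E11.5 (-0.10) was 0.0061 with library size alone, 0.49 after division by the second level, -1.99 with limma voom and -2.93 to 0.44 without each library. The cause of these changes was not tested.

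The replicate numbers are only numbers here: deviations of same-numbered libraries from their stage means correlated at -0.15 to 0.11 over 18 pairs, with 1 over 0.1. With the replicate block, 3 entries were called at E11.5 against E8.5, with mir-10b added (log2 fold change -5.39, edgeR adjusted p = 0.0220), the count of called entries was the same in the other comparisons, and miR-196a-5p at E11.5 turned to -1.18. The E9.5 libraries limit the depth most, since 3 reads there are worth 32.0 to 75.9 CPM.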
